A study of Homo sapiens with 26 samples.

Results

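The genes described here are 31 genes of antigen presentation, chosen by symbol, in human small cell lung cancer (SCLC) cell lines. All 31 were found among the 19128 genes of the knockout tables and the 19117 genes of the parental table. Levels are FPKM, the number of sequenced fragments scaled to transcript length and to the size of the library, from polyA RNA libraries made with the Illumina TruSeq v2 kit. Of the 26 libraries, 12 came from NCI-H526, NCI-H211, COR-L311 and NCI-H1048 cells infected by lentivirus with a guide RNA: sgPOU2F3 cells received sgPOU2F3e10.1 or sgPOU2F3e10.2, which target POU2F3, and sgNeg cells received a control guide. Cells were harvested on day 4 after infection for NCI-H211 and NCI-H1048, and on day 5 for NCI-H526 and COR-L311. The other 14 libraries came from uninfected parental lines in exponential growth, 1 per line: the 4 lines used for knockout, and NCI-H446, NCI-H82, NCI-H524, DMS114, NCI-H146, DMS79, NCI-H889, NCI-H510, NCI-H128 and NCI-H69. NCI-H1048 was grown in HITES medium, NCI-H128 in RPMI with 20% serum, and the rest in RPMI with 10% serum or in HITES, so the medium, the day and the line cannot be told apart. The deposited tables hold 1 sgPOU2F3 value per gene and line for both guides, so each line gives 1 ratio and the spread between guides is not known. The sources used here name no clone and no selection of infected cells.

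Major histocompatibility complex (MHC) class I molecules carry peptides from inside the cell to its surface, where cytotoxic T cells read them. The proteasome cuts the peptides, the TAP transporter carries them into the endoplasmic reticulum, tapasin and its relative load them, and the heavy chain reaches the surface only with beta-2-microglobulin. NLRC5 is the transactivator of the class I genes and CIITA that of the class II genes, which are normally restricted to professional antigen-presenting cells. Interferon gamma induces most of these genes. Low class I levels are well known in SCLC. POU2F3 is the transcription factor that marks tuft cells and the tuft-like type of SCLC, and POU factors bind the octamer motif.

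The promoters of 5 members are shown because those genes carry the results below: TAP1, TAP2, PSMB8 and HLA-B differed widely between parental lines, and B2M is the subunit that class I molecules share. The 300-base windows around a gene start are RefSeq's on GRCh38.p14, while the deposited values were made on hg19. Capitals mark the interferon-stimulated response element letters, GAAA followed by any 2 bases and again GAAA, in TAP1 (chr6:32853655-32853954, minus strand), TAP2 (chr6:32838690-32838989, minus strand), PSMB8 (chr6:32843998-32844297, minus strand) and B2M (chr15:44711267-44711566, plus strand). In HLA-B (chr6:31357130-31357429, minus strand) they mark CCAAT, the letters bound by NF-Y. Each sequence is written 5′ to 3′ along its gene, and a match on the other strand appears as the reverse complement.
TAP1 promoter: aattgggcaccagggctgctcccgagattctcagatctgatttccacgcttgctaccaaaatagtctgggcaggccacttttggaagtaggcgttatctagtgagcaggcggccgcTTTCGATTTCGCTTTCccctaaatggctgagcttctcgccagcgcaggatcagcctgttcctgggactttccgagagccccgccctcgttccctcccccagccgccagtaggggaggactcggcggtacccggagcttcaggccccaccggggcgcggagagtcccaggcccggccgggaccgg
TAP2 promoter: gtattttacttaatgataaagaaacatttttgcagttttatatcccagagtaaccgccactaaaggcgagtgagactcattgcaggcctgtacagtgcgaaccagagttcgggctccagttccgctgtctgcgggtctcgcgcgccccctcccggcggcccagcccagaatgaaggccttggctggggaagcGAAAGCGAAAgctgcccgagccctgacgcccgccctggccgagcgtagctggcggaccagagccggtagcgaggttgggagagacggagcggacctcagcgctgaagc
PSMB8 promoter: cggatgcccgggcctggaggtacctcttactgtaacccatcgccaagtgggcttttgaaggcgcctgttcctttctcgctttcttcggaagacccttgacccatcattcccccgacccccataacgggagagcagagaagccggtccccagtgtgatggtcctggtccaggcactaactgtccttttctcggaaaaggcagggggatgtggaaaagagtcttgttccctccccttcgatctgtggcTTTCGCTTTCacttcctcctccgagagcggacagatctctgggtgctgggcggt
B2M promoter: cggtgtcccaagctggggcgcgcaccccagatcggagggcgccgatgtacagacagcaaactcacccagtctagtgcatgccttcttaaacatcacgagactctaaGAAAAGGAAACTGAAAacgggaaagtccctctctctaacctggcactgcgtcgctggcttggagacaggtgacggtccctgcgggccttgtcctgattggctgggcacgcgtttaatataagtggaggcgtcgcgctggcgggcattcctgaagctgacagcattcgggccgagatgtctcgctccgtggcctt
HLA-B promoter: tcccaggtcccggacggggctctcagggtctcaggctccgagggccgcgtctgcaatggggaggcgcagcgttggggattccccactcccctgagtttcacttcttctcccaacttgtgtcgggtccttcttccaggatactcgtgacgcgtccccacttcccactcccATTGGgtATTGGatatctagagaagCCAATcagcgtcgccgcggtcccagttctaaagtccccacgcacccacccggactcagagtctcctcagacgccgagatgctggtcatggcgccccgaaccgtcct
Each window shown was the first listed for its gene that held the marked letters, so a match in it was fixed in advance. TAP1 and B2M each hold 2 overlapping matches, TAP2 and PSMB8 hold 1, and HLA-B holds 3 of CCAAT. TAP1 and PSMB8 had 2 listed starts each, and the response element letters were only in the window shown. Of the 31 members, 26 had a promoter in the table, in 35 windows; HLA-E, NLRC5, CIITA, HLA-DRA and CTSS had none. The response element letters, on either strand, were in a window of 11 of the 26: B2M, ERAP1, ERAP2, HLA-F, PSMB8, PSMB10, PSME1, PSME2, TAP1, TAP2 and TAPBP. They were in 3.57% of all 35116 windows. CCAAT was in a window of 17 of the 26 members and in 34.6% of all windows. The windows of TAP1 and PSMB9, on opposite strands, overlap at their far ends, and their CCAAT match is 1 shared site. The octamer ATGCAAAT was in 0 of the 26 and in 1.77% of all windows. These are counts of letters in short windows, and a gene with several windows had more than 1 chance of a match.

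In the knockout tables POU2F3 had 218 FPKM in sgPOU2F3 and 272 in sgNeg COR-L311 cells, 60.8 and 198 in NCI-H1048, 21.3 and 307 in NCI-H211, and 204 and 501 in NCI-H526. The arms differed least in COR-L311 and most in NCI-H211. The mean log2 ratio of POU2F3 was -1.77 ± 1.46 (SD, n = 4 lines), lower in 4 of 4 lines, and POU2F3 itself was not called (limma adjusted p = 0.397). A cut in the gene need not lower its mRNA, so the level is only a partial check of the knockout. Depth, estimated from the steps between low values, was 19.9 to 32.8 M fragments in sgPOU2F3 columns, 10.4 to 16.6 M in sgNeg columns and 10.7 to 34.5 M in parental libraries. Each sgPOU2F3 column combines 2 guides and each sgNeg column holds 1 library, so these depths are not per library. Genes at 0 made up 13.8% to 15.9% of sgPOU2F3 and 18.3% to 21.5% of sgNeg columns. Each sgNeg column was most like its own parental line, with a Spearman correlation across genes of 0.956 to 0.970. Of 11 immune cell markers, 8 were under 1 FPKM in every sgPOU2F3 column and 9 in every sgNeg column, and CD3D and MS4A1 were at 0 in all 8 columns. The immune markers summed to 2.34 to 8.48 FPKM in sgPOU2F3 and 2.25 to 6.13 in sgNeg columns. The 8 fibroblast and endothelial markers summed to 1.85 to 16.5 FPKM in sgPOU2F3 and 0.42 to 8.15 in sgNeg columns.

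After POU2F3 knockout, no antigen presentation gene that could be tested passed the test across the 4 lines. B2M was somewhat higher in sgPOU2F3 cells of every line and TAP1 somewhat lower, both short of the threshold. The widest changes were in NCI-H211, where HLA-E was 1.85 and HLA-B 1.13 higher on the log2 scale. HLA-DPA1 was lower by 1.09 in COR-L311. Values were compared as log2(FPKM + 1), which understates changes of low genes, and 22 of the 31 members reached 1 FPKM in at least 4 of the 8 columns. Of the 22, 0 were called at a limma adjusted p under 0.05, where 0.0161% of 12387 genes were called higher and 0% lower. At an unadjusted limma p under 0.05 there were 3 of the 22: B2M and TAPBPL higher and TAP1 lower. That is 13.6% of the members tested, against 11.8% of all genes tested, 4.67% higher and 7.08% lower. The median log2 ratio of the 22 was -0.003, with 11 positive and 11 negative, against -0.016 over all genes tested. The sign was the same in 4 of 4 lines for 7 of the 22: HLA-F, B2M and TAPBPL higher, and TAP1, TAP2, HLA-DPB1 and MICB lower. That is 31.8%, against 22.7% of all genes tested, 9.81% higher and 12.9% lower. Signs count here whatever their size. In COR-L311 the log2 ratio was 0.017 for HLA-F and -0.011 for MICB, and HLA-F in NCI-H211 had 0.049 FPKM against 0. With 4 lines an exact sign-flip test cannot give a two-sided p below 0.125, so a single gene was tested only within the fit across all genes. RNA from a culture averages its cells, so more expressing cells and more RNA per cell cannot be told apart.

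**Figure D1:**
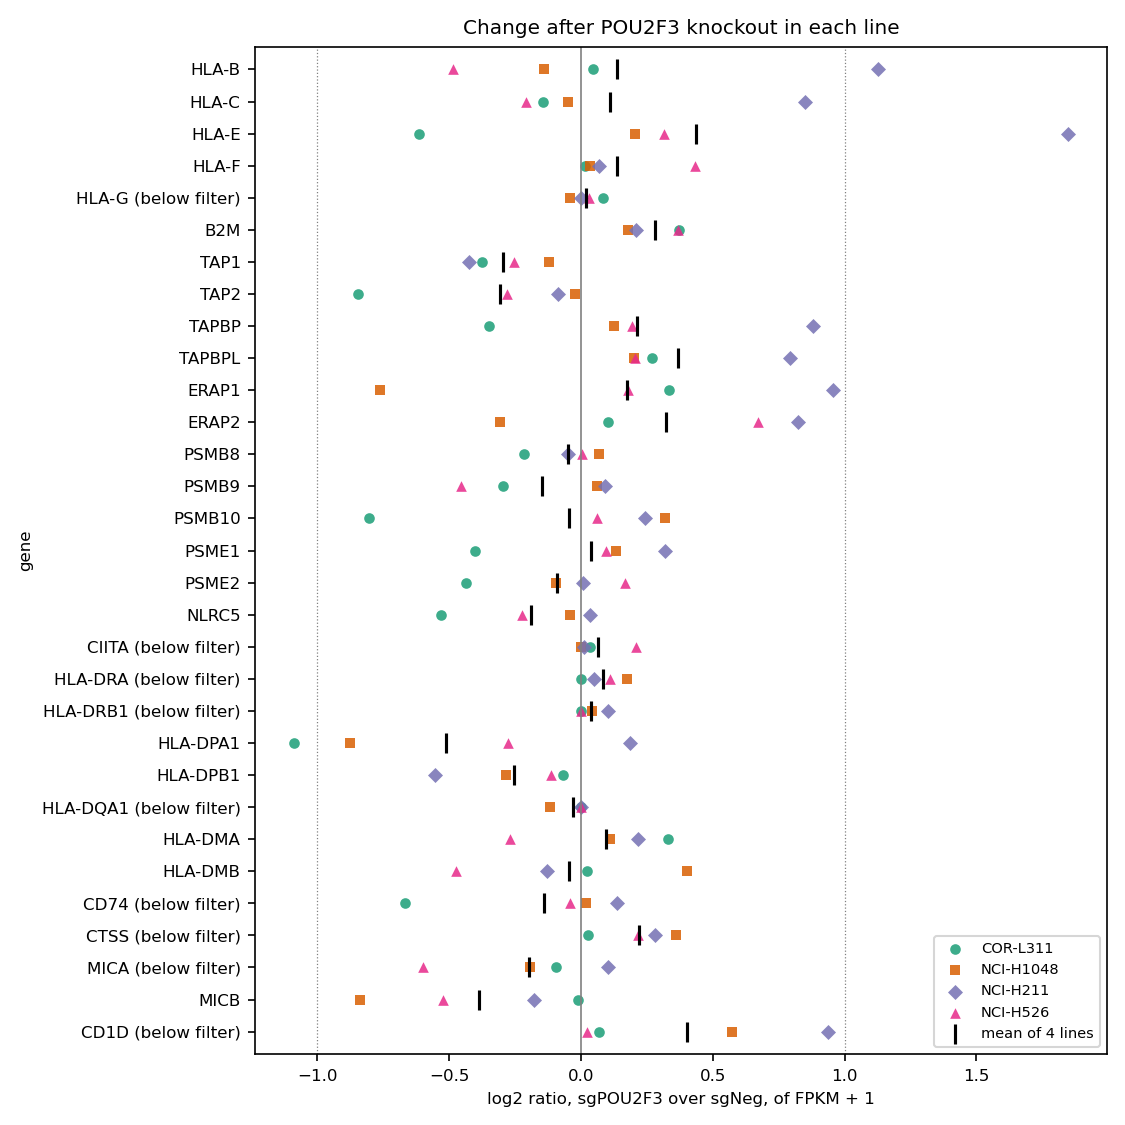
Log2 ratio of FPKM + 1, sgPOU2F3 over sgNeg, for each of the 31 genes (rows) in each of 4 lines (symbols), with the mean as a black tick and dotted lines at a 2-fold change. Most points lie between the dotted lines; HLA-E (1.85) and HLA-B (1.13) in NCI-H211 lie to the right of them and HLA-DPA1 (-1.09) in COR-L311 to the left.

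The class I heavy chains HLA-B and HLA-C present peptides to T cells. HLA-B had 432 FPKM in sgPOU2F3 and 419 in sgNeg COR-L311 cells, 545 and 601 in NCI-H1048, 1.48 and 0.137 in NCI-H211, and 203 and 285 in NCI-H526. NCI-H211 thus stood far below the other lines in both arms. The mean log2 ratio was 0.14 ± 0.70 (SD, n = 4 lines), with a limma adjusted p of 0.845. One fragment on HLA-B was worth about 0.028 FPKM in the sgPOU2F3 and 0.072 FPKM in the sgNeg column of NCI-H211, so the sgNeg value there stands for about 2 fragments. HLA-C had 398 FPKM in sgPOU2F3 and 439 in sgNeg COR-L311 cells, 333 and 345 in NCI-H1048, 42.4 and 23.1 in NCI-H211, and 379 and 438 in NCI-H526. It was higher in sgPOU2F3 cells of NCI-H211 and slightly lower in the other 3 lines. Its mean log2 ratio was 0.11 ± 0.49 (SD, n = 4 lines; limma adjusted p = 0.830).

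HLA-E, a less variable heavy chain that natural killer cells read through NKG2A, had 49.4 FPKM in sgPOU2F3 and 76.2 in sgNeg COR-L311 cells, 71.4 and 61.8 in NCI-H1048, 13.9 and 3.13 in NCI-H211, and 11.5 and 9.07 in NCI-H526. It was lower in COR-L311 and higher in the other 3, most in NCI-H211. Its mean log2 ratio was 0.44 ± 1.03 (SD, n = 4 lines; limma adjusted p = 0.642). HLA-F, another nonclassical heavy chain, had 2.67 FPKM in sgPOU2F3 and 2.62 in sgNeg COR-L311 cells, 11.2 and 10.9 in NCI-H1048, 0.049 and 0 in NCI-H211, and 1.25 and 0.666 in NCI-H526. It was higher by a small amount in 4 of 4 lines. HLA-G, known from the placenta, stayed at or under 0.309 FPKM in all 8 columns and was not tested. The heavy chains resemble each other: of the 50-base words of one transcript, 2.54% in HLA-B, 6.71% in HLA-C, 5.13% in HLA-E, 1.70% in HLA-F and 4.38% in HLA-G also occurred in another gene's transcripts. Outside the heavy chains, PSMB9 had 12.1% and HLA-DRB1 9.92%, the highest shares of the 13 members looked at. Fragments from such words may be credited to the wrong gene, and these shares do not give the size of that error. HLA alleles that differ from the genome's may be under-counted, which was not tested.

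B2M, the light chain that all class I molecules share, was the most abundant member in 7 of 8 columns, with HLA-C above it in sgNeg NCI-H526 cells. It had 1374 FPKM in sgPOU2F3 and 1063 in sgNeg COR-L311 cells, 1320 and 1167 in NCI-H1048, 192 and 166 in NCI-H211, and 511 and 396 in NCI-H526. The sgPOU2F3 value was the higher one in each line, and the difference between lines was larger than that between arms. Its mean log2 ratio was 0.28 ± 0.10 (SD, n = 4 lines; limma adjusted p = 0.419). B2M shared 0% of its 50-base words with other genes.

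**Figure D2:**
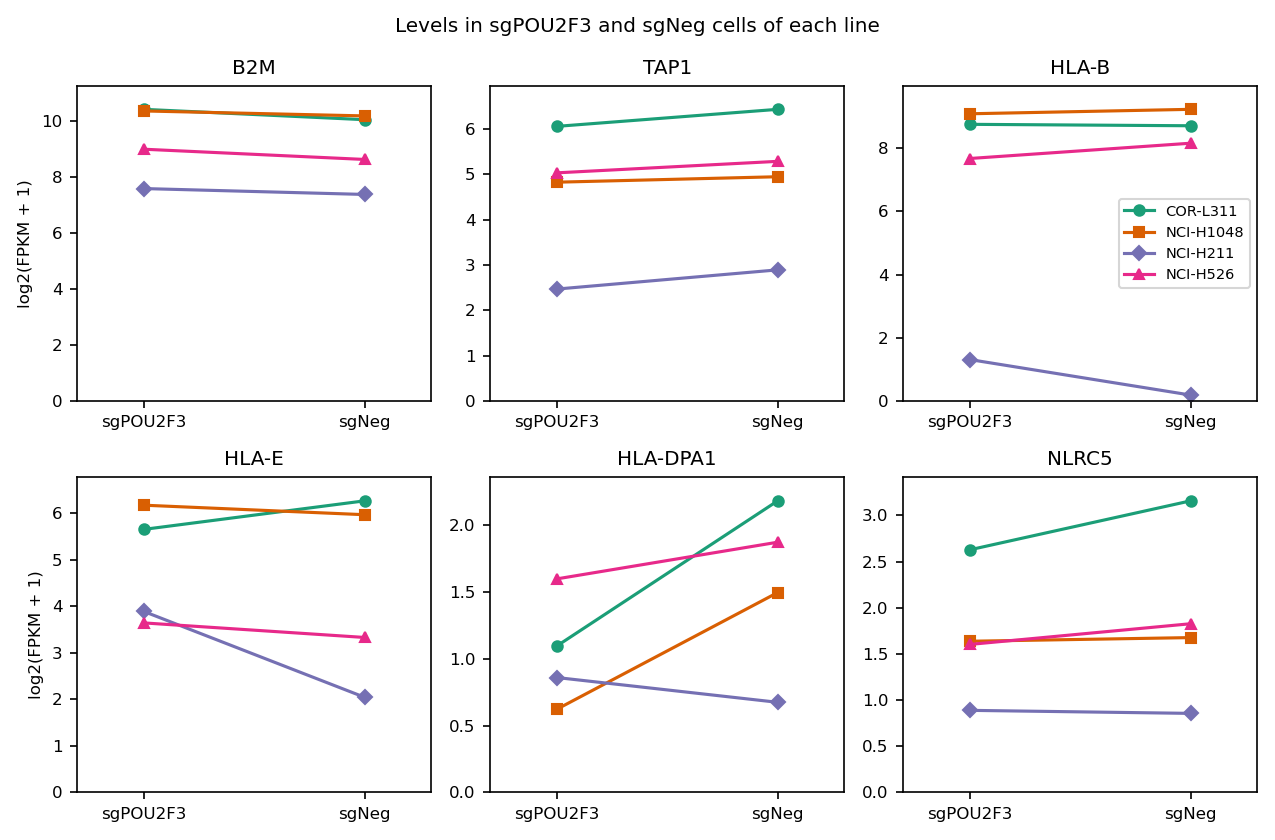
Level of 6 genes as log2(FPKM + 1) in sgPOU2F3 cells (left) and sgNeg cells (right) of each line, 1 deposited value per point, with a line joining the arms of 1 cell line. B2M slopes down toward sgNeg in all 4 lines and TAP1 up, while HLA-B (1.48 and 0.137 FPKM) and HLA-E (13.9 and 3.13 FPKM) separate the arms most in NCI-H211.

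TAP1 and TAP2 form the peptide transporter. TAP1 had 65.4 FPKM in sgPOU2F3 and 85.2 in sgNeg COR-L311 cells, 27.3 and 29.8 in NCI-H1048, 4.52 and 6.41 in NCI-H211, and 31.6 and 37.9 in NCI-H526. It was lower in sgPOU2F3 cells of every line, and the log2 ratios averaged -0.29 ± 0.14 (SD, n = 4 lines; limma adjusted p = 0.402). TAP2 had 20.5 FPKM in sgPOU2F3 and 37.6 in sgNeg COR-L311 cells, 14.9 and 15.1 in NCI-H1048, 19.0 and 20.2 in NCI-H211, and 18.8 and 23.0 in NCI-H526. Most of its mean of -0.31 ± 0.37 came from COR-L311 (SD, n = 4 lines; limma adjusted p = 0.483). TAPBPL, the tapasin-related peptide editor, had 3.78 FPKM in sgPOU2F3 and 2.96 in sgNeg COR-L311 cells, 6.01 and 5.10 in NCI-H1048, 8.89 and 4.71 in NCI-H211, and 3.84 and 3.19 in NCI-H526. Its mean log2 ratio was 0.37 ± 0.29 (SD, n = 4 lines; limma adjusted p = 0.424), and NCI-H211 stood apart from the other 3 lines. Tapasin itself, TAPBP, had 28.7 FPKM in sgPOU2F3 and 15.1 in sgNeg cells of NCI-H211, with log2 ratios between -0.35 and 0.19 elsewhere. ERAP1 and ERAP2 trim peptides in the endoplasmic reticulum. In NCI-H211, ERAP1 had 6.07 FPKM in sgPOU2F3 and 2.65 in sgNeg cells, and in NCI-H1048 it went the other way, with 8.54 FPKM in sgPOU2F3 and 15.2 in sgNeg cells. ERAP2 was higher in sgPOU2F3 cells of 3 of 4 lines, by up to 0.82 on the log2 scale, and lower in NCI-H1048.

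In NCI-H211 the heavy chain and loading groups had their highest medians of the 4 lines, although B2M (0.21), HLA-F (0.07) and TAP1 (-0.42) were not highest there. The median log2 ratio was 0.85 over the 5 tested heavy chain and B2M genes and 0.81 over the 6 peptide loading genes, against -0.03 over all genes tested. The same 5 genes had a median of 0.31 in NCI-H526, 0.04 in NCI-H1048 and 0.02 in COR-L311. Within NCI-H211, 2 of the 22 members passed a 2-fold difference, HLA-B and HLA-E, both higher, against 4.87% of all genes tested that were higher and 9.13% in either direction. In COR-L311 1 of 22, HLA-DPA1, passed it and was lower, against 1.92% of genes lower and 4.73% in either direction. None passed it in NCI-H1048 or NCI-H526, where 1.55% and 1.78% of genes did in either direction. With 1 value per arm these are counts by size, with no test. NCI-H211 was also the line with the largest difference in POU2F3 and the shallowest sgNeg column. The estimate was 10.4 M fragments there, against 26.3 M in its sgPOU2F3 column, which combines 2 guides. The collagen-binding matrix gene LUM had 12.3 FPKM in sgPOU2F3 and 0.101 in sgNeg NCI-H211 cells, its relative DCN 0.537 and 7.26, and the lysozyme gene LYZ 6.04 and 0.514. The fibroblast and endothelial list summed to 16.5 FPKM in sgPOU2F3 and 8.15 in sgNeg NCI-H211 cells. The part of these in the class I values of NCI-H211 was not tested.

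The immunoproteasome subunits PSMB8, PSMB9 and PSMB10 replace the constitutive catalytic subunits, and PSME1 and PSME2 form the PA28 activator. PSMB8 had 105 FPKM in sgPOU2F3 and 122 in sgNeg COR-L311 cells, 89.7 and 85.5 in NCI-H1048, 3.74 and 3.91 in NCI-H211, and 52.8 and 52.7 in NCI-H526. The arms lay close together in each line and NCI-H211 was far below the others. The mean log2 ratio was -0.05 ± 0.12 for PSMB8 and -0.15 ± 0.27 for PSMB9 (SD, n = 4 lines). PSMB9 was between 0.571 and 24.2 FPKM, lowest in NCI-H211. PSMB10, PSME1 and PSME2 were each lower in COR-L311, by 0.40 to 0.80 on the log2 scale, and their ratios elsewhere lay between -0.10 and 0.32. The smallest limma adjusted p of these 5 genes was 0.684. PSMB8 and PSMB9 sit beside TAP1 and TAP2 in the class II region, and the sources used here do not state whether fragments were counted by strand, so reads from overlapping transcripts there cannot be told apart.

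The transactivator NLRC5 had 5.17 FPKM in sgPOU2F3 and 7.92 in sgNeg COR-L311 cells, 2.11 and 2.20 in NCI-H1048, 0.851 and 0.810 in NCI-H211, and 2.04 and 2.55 in NCI-H526. The log2 ratio was -0.53 in COR-L311 and -0.22 in NCI-H526. It was near level in NCI-H1048 (-0.040) and in NCI-H211 (0.033), the line with the least NLRC5. Its mean log2 ratio was -0.19 ± 0.25 (SD, n = 4 lines; limma adjusted p = 0.623). CIITA was at most 0.266 FPKM, in sgPOU2F3 NCI-H526 cells, where sgNeg had 0.094, and it was at 0 in both arms of NCI-H1048.

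Most class II genes were low, while HLA-DMA was between 6.51 and 12.3 FPKM in both arms of NCI-H1048, NCI-H211 and NCI-H526. HLA-DPA1, the alpha chain of HLA-DP, had 1.14 FPKM in sgPOU2F3 and 3.54 in sgNeg COR-L311 cells, 0.539 and 1.82 in NCI-H1048, 0.815 and 0.596 in NCI-H211, and 2.03 and 2.66 in NCI-H526. It was lower in 3 of 4 lines, and the log2 ratios averaged -0.51 ± 0.58 (SD, n = 4 lines; limma adjusted p = 0.452). Its partner HLA-DPB1 was lower in 4 of 4 lines, by 0.07 to 0.55 on the log2 scale, at 0.240 to 2.80 FPKM. The HLA-DM chains, which edit class II peptides, differed in opposite directions between lines. HLA-DMA reached 12.3 FPKM in NCI-H1048, and its log2 ratios lay between -0.27 and 0.33. HLA-DMB reached 5.65 FPKM there, with log2 ratios between -0.47 and 0.40. CD74, the invariant chain that escorts class II molecules, had 18.6 FPKM in sgPOU2F3 and 19.2 in sgNeg NCI-H526 cells and at most 1.55 in the other lines. HLA-DRA had 7.13 FPKM in sgPOU2F3 and 6.20 in sgNeg NCI-H1048 cells and at most 0.080 elsewhere. HLA-DRB1 stayed at or under 0.457 FPKM, HLA-DQA1 at or under 0.366, and CTSS, which degrades CD74, at or under 0.819.

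MICA and MICB are stress ligands of the NKG2D receptor, and CD1D presents lipids. MICB had 0.502 FPKM in sgPOU2F3 and 0.513 in sgNeg COR-L311 cells, 3.81 and 7.60 in NCI-H1048, 0.154 and 0.305 in NCI-H211, and 5.25 and 7.96 in NCI-H526. It was lower in 4 of 4 lines, and the log2 ratios averaged -0.39 ± 0.37 (SD, n = 4 lines; limma adjusted p = 0.448). MICA had 12.9 FPKM in sgPOU2F3 and 14.9 in sgNeg NCI-H1048 cells and at most 1.05 elsewhere. CD1D had 1.02 FPKM in sgPOU2F3 and 0.054 in sgNeg NCI-H211 cells and was below the filter.

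Of 62 other genes of the pathway, in 8 lists, 53 were tested in the knockout, and 0 were called at a limma adjusted p under 0.05. The list of interferon gamma signaling had the highest median of the 8, a log2 ratio of 0.32 over 11 genes. By line its median was 0.65 in NCI-H211, 0.11 in COR-L311, 0.10 in NCI-H526 and 0.03 in NCI-H1048, so NCI-H211 was far above the others. Of the 11, 4 had an unadjusted p under 0.05 and were higher, against 4.67% of all genes tested. IFNGR1, the ligand-binding receptor chain, had a mean log2 ratio of 0.44 and IRF9, the DNA-binding subunit of ISGF3, of 0.44. Both were positive in 4 of 4 lines, as were 9.81% of all genes tested, with limma adjusted p of 0.400 and 0.397. Of the 7 genes of the RFX and NF-Y complex that binds MHC promoters, 1 had an unadjusted p under 0.05. This was RFXAP, at a mean of -0.40 and lower in 4 of 4 lines (limma adjusted p = 0.407). Over all genes tested, 7.08% were lower at an unadjusted limma p under 0.05, and 12.9% were lower in 4 of 4 lines. No gene of the other 6 lists had an unadjusted p under 0.05. Their median log2 ratios were 0.06 for 7 chaperones of class I loading, -0.08 for 9 genes of the constitutive proteasome and its other activators, -0.11 for 6 genes of the PRC2 complex and DNA methyltransferases, 0.23 for 7 endolysosomal proteases, 0.13 for 2 of the other NKG2D ligands and 0.02 for 4 costimulation and checkpoint ligands. In each of these lists the 2 genes with the smallest p had limma adjusted p of 0.425 or more.

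The parental lines differed widely in their class I machinery. The 4 lines used for knockout, which had 189 to 387 FPKM of POU2F3 against at most 0.612 in the 10 other lines, had higher means of NLRC5, TAP1, TAP2, PSMB8, PSMB9, HLA-B and HLA-C. None of these differences passed the test across all genes. DMS114 and DMS79, both among the 10, had TAP1 and PSMB9 within the range of the 4 lines. NCI-H211 had the least of the 4 for each of these genes except TAP2. Of 19 members that reached 1 FPKM in at least 4 of 14 libraries, 0 were called at a limma adjusted p under 0.05, where 0.212% of 13226 genes were called higher and 0.0378% lower in the 4 lines. An unadjusted p under 0.05 was found for 7 of the 19, namely HLA-B, TAP1, TAP2, PSMB8, PSMB9, NLRC5 and HLA-DMA, and all 7 were higher in the 4 lines. That is 36.8%, against 4.60% of all genes tested that were higher. A member that is low in the 10 lines could pass the filter through the 4 lines alone, so this share is a description. The median log2 difference of the 19 was 0.70, against -0.003 over all genes tested. The median SD of log2(FPKM + 1) across the 14 lines was 1.25 for the 19 members and 0.70 for all genes tested. Each line has 1 library, so neighbours in an order of lines cannot be told apart by a spread of their own.

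**Figure D3:**
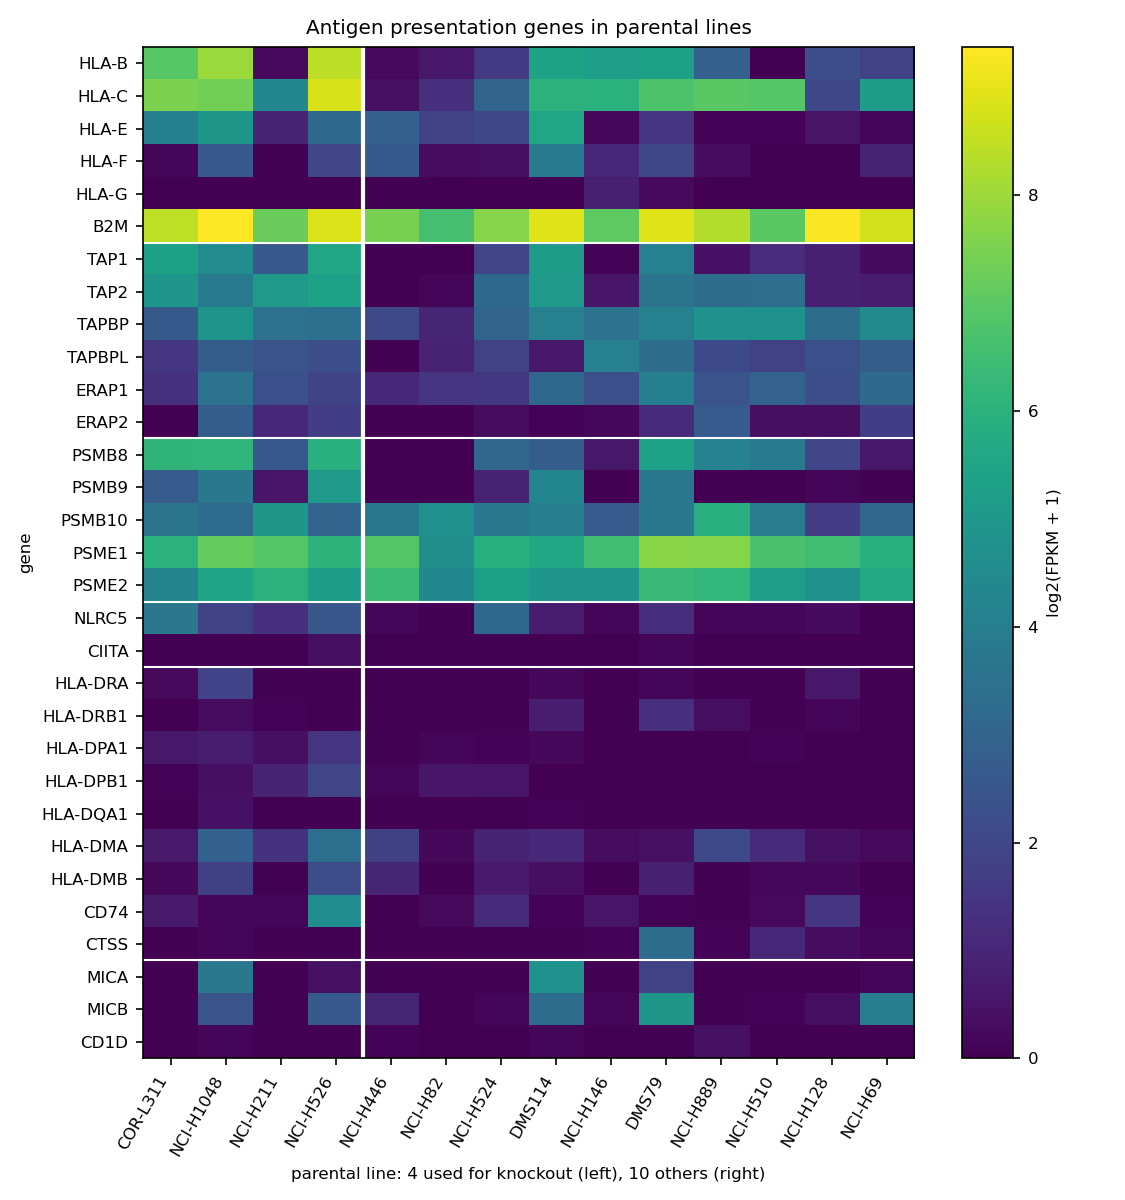
Level of the 31 genes (rows, grouped by role) as log2(FPKM + 1) in 14 parental lines, 1 library each, with the 4 lines used for knockout left of the white line. B2M is bright in all 14; TAP1 and HLA-B are bright in most of the 4 and in DMS114 and DMS79. Most class II genes are dark, with HLA-DMA at 1 FPKM or more in 7 lines and CD74 at 22.6 FPKM in NCI-H526.

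NLRC5 had 12.2 FPKM in COR-L311, 4.56 in NCI-H526, 2.62 in NCI-H1048 and 1.49 in NCI-H211. Of the 10 other lines, NCI-H524 had 7.70 FPKM, DMS79 1.33, and the other 8 at most 0.633. The log2 difference was 1.75 with a standard error of 0.56 (limma adjusted p = 0.304). The exact permutation test over the 1001 ways to choose 4 of the 14 lines gave a two-sided p of 0.0150, unadjusted, and such a test was made for each of the 31 members. CIITA reached 0.265 FPKM in NCI-H526 and at most 0.113 in the 10 other lines.

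TAP1 had 45.0 FPKM in NCI-H526, 38.8 in COR-L311, 21.8 in NCI-H1048 and 5.12 in NCI-H211. In the 10 other lines it ran from 0 to 33.9 FPKM with a median of 0.576, and only DMS114 (33.9) and DMS79 (15.9) were above the lowest of the 4. The log2 difference was 3.09 with a standard error of 0.90 (limma adjusted p = 0.233; exact two-sided permutation p = 0.00699, unadjusted). TAP2 ran from 13.7 to 40.3 FPKM in the 4 lines and from 0.022 to 32.4 FPKM, with a median of 4.36, in the 10 others. Its log2 difference was 2.72 (limma adjusted p = 0.282). The other loading genes differed less: TAPBP, TAPBPL and ERAP1 had log2 differences between -0.15 and 0.25, and ERAP2 had 0.70 (limma adjusted p = 0.782).

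PSMB8 had 71.6 FPKM in NCI-H1048, 68.6 in COR-L311, 60.2 in NCI-H526 and 5.04 in NCI-H211. In the 10 other lines it ran from 0 to 39.8 FPKM, with a median of 4.35 and the highest value in DMS79. Thus 3 of the 4 lay above all 10, and NCI-H211 lay in the middle of them. The log2 difference was 2.97 with a standard error of 0.98 (limma adjusted p = 0.326). PSMB9 ran from 0.491 to 32.1 FPKM in the 4 lines and from 0 to 18.8 FPKM in the 10 others, 5 of which were listed at 0. Its log2 difference was 2.12 (limma adjusted p = 0.524). PSMB10, PSME1 and PSME2 were present in all 14 lines, with log2 differences between -0.20 and 0.15.

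HLA-B had 123 FPKM in COR-L311, 0.168 in NCI-H211, 252 in NCI-H1048 and 344 in NCI-H526. The 10 other lines ran from 0 in NCI-H510 to 42.5 FPKM in DMS114, with a median of 3.17. The log2 difference was 3.35 with a standard error of 1.37 (limma adjusted p = 0.490), and 3 of the 4 lines lay above all 10. HLA-C ran from 20.0 to 449 FPKM in the 4 lines and from 0.343 to 123 FPKM in the 10 others, with a log2 difference of 2.58 (limma adjusted p = 0.579). NCI-H889 and NCI-H510 had 123 and 119 FPKM of HLA-C with 6.29 and 0 FPKM of HLA-B. HLA-E ran from 0.913 to 29.8 FPKM in the 4 lines and from 0.067 to 44.2 FPKM in the 10 others, with the highest value of all 14 in DMS114. HLA-F had nearly equal means, with a log2 difference of 0.03. HLA-G was listed at 0 in the 4 lines and reached 0.772 FPKM in NCI-H146.

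B2M was high in both groups. It ran from 149 to 664 FPKM in the 4 lines and from 95.7 to 639 FPKM in the 10 others, with a log2 difference of 0.50 and a standard error of 0.52 (limma adjusted p = 0.851). NCI-H446 and NCI-H82 still had 175 and 95.7 FPKM of B2M, while TAP1, PSMB8 and PSMB9 were at or under 0.029 FPKM there.

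**Figure D4:**
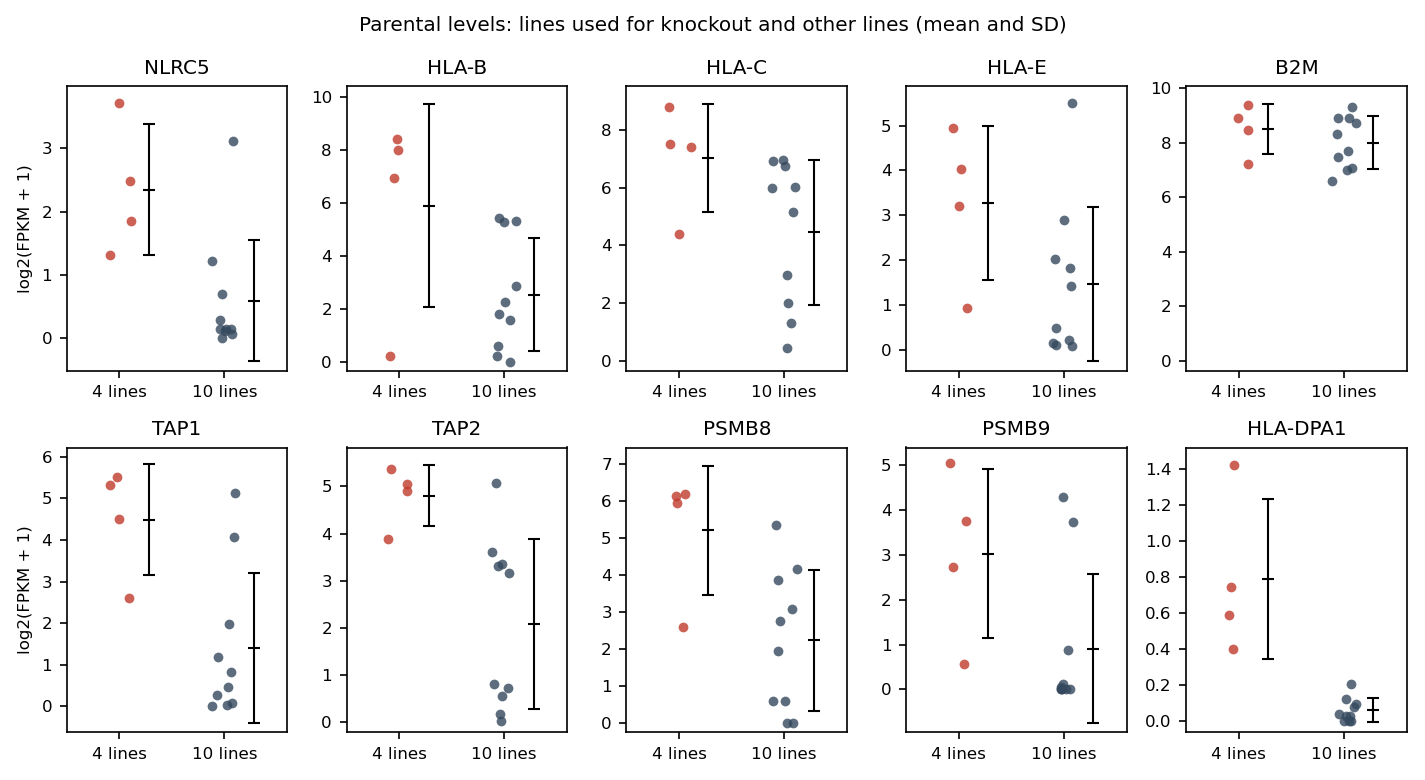
Level of 10 genes as log2(FPKM + 1) in the 4 parental lines used for knockout (left) and the 10 other lines (right), 1 point per line, with the mean and SD in black; each panel has its own axis. The groups overlap for each gene but HLA-DPA1, which ran from 0.322 to 1.68 FPKM in the 4 lines and from 0 to 0.153 FPKM in the 10 others.

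HLA-DPA1 was the only member whose groups did not overlap, at low levels. It had 0.506 FPKM in COR-L311, 0.322 in NCI-H211, 0.677 in NCI-H1048 and 1.68 in NCI-H526, and from 0 to 0.153 FPKM in the 10 other lines. Of 18337 genes taken with no filter, 0.376% were above all 10 in all 4 lines. One fragment on HLA-DPA1 was worth about 0.039 FPKM in NCI-H211. With 1 line at 1 FPKM or more it missed the filter, so it was not among the 19. In the fit with no filter its log2 difference was 0.73 with a standard error of 0.13 (limma adjusted p = 0.035), where 0.202% of genes were called higher, and no other setting tried tested it. Its exact two-sided permutation p was 0.000999, the smallest that 4 against 10 lines can give, unadjusted among 31 members. HLA-DPB1 overlapped, with 2.88 FPKM in NCI-H526, 0.881 in NCI-H211, 0.290 in NCI-H1048 and 0.073 in COR-L311, against at most 0.496 FPKM in the 10 others. The other class II genes overlapped between the groups. HLA-DMA ran from 0.612 to 9.40 FPKM in the 4 lines and from 0.144 to 3.15 FPKM in the 10 others (log2 difference 1.24, limma adjusted p = 0.488). HLA-DMB reached 3.62 FPKM in NCI-H526 and 2.42 in NCI-H1048, against at most 1.03 FPKM in the 10 others. CD74 had 22.6 FPKM in NCI-H526 and at most 0.582 in the rest of the 4, against at most 1.77 FPKM in the 10 others. HLA-DRA reached 2.72 FPKM in NCI-H1048, against at most 0.528 in the 10 others. HLA-DRB1, at 1.37 FPKM, and CTSS, at 8.91 FPKM, were highest in DMS79, and HLA-DQA1 did not pass 0.389 FPKM in any line.

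MICA was at 26.2 FPKM in DMS114, 12.6 in NCI-H1048 and 2.61 in DMS79, and at most 0.324 in the other lines. MICB ran from 0 to 5.07 FPKM in the 4 lines and from 0.015 to 30.0 FPKM in the 10 others, with the highest values in DMS79 and NCI-H69 (log2 difference -0.14, limma adjusted p = 0.981). CD1D did not pass 0.330 FPKM in any line. Immune markers summed to 1.21 to 3.74 FPKM in the 4 lines and to 1.01 to 14.3 FPKM in the 10 others, highest in DMS79. In DMS79, CD79A had 12.6 FPKM and PTPRC 0. The fibroblast and endothelial markers summed to 0.512 to 6.93 FPKM in the 4 lines and to 0.306 FPKM or more in the 10 others. DMS114 was far above the rest, with 512 FPKM of COL3A1, 284 of LUM and 89.1 of DCN. Its COL1A1 was 1.19 FPKM, PDGFRB 3.22 and CDH5 0.038, and PECAM1 and VWF were at 0. NCI-H446 had 63.8 FPKM of CDH5. DMS79 and DMS114 are also the 2 of the 10 with the most TAP1 and PSMB9, while NCI-H446 had 0.029 FPKM of TAP1 and 0 of PSMB9. The part of those markers in these levels was not tested. Of the 62 other genes of the pathway, 54 were tested between the 4 and the 10 lines, and 0 were called. The chaperone CALR, calreticulin, ran from 178 to 486 FPKM in the 4 lines and from 381 to 865 FPKM in the 10 others (log2 difference -0.99, limma adjusted p = 0.297). The interferon receptor kinase JAK1 ran from 18.4 to 109 FPKM in the 4 lines and from 5.04 to 37.9 FPKM in the 10 others (log2 difference 1.22, limma adjusted p = 0.525).

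Some members varied together across the 14 parental lines. The 3 members most like NLRC5 by Spearman correlation were TAP1 (0.82), PSMB9 (0.77) and PSMB8 (0.69). Those most like B2M were HLA-DRA (0.83), PSMB9 (0.72) and HLA-B (0.70). HLA-DRA was at 0 in 8 of the 14 lines and reached 1 FPKM in only 1. The Pearson correlation with B2M was 0.54 for HLA-DRA, 0.63 for PSMB9 and 0.64 for HLA-B. CIITA reached 1 FPKM in no line, so no likeness was computed for it. The closest pair of all was TAP1 with TAP2 (0.94), followed by HLA-F with MICA (0.91) and TAP1 with PSMB9 (0.90). HLA-C and PSMB8 stood at 0.88. The median over 351 pairs of 27 members was 0.26. TAPBP and ERAP1 (0.89) ran together but apart from TAP1. PSME2 and CD74 were the most opposed pair (-0.73). These are descriptions over 14 lines that share a table and a library type, many low values are tied at 0, and TAP1 and PSMB9 are close neighbours in the genome.

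**Figure D5:**
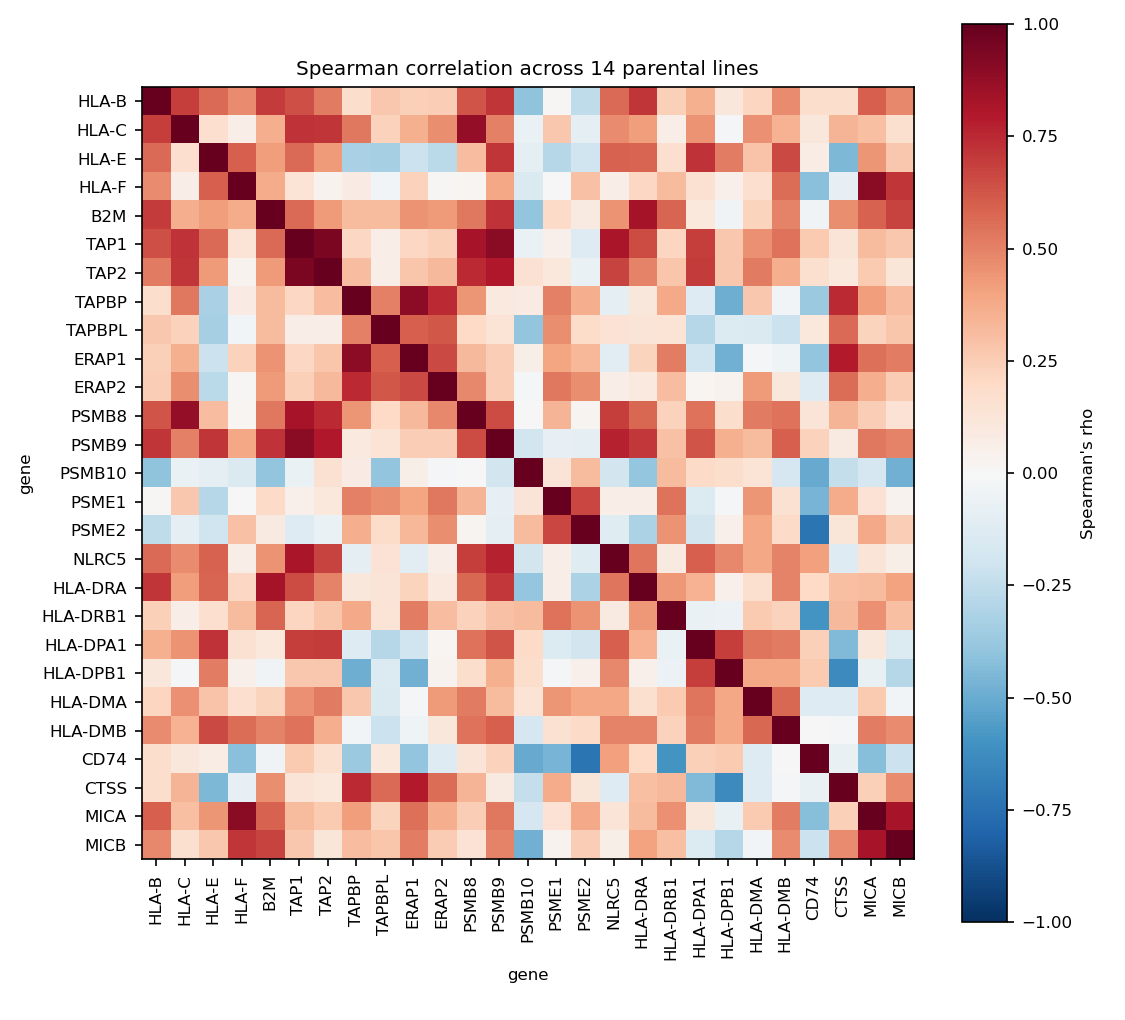
Spearman correlation of log2(FPKM + 1) across 14 parental lines for each pair of the 27 members that reach 1 FPKM in a line, from -1 (blue) to 1 (red). A red block joins TAP1 with TAP2 (0.94), PSMB8 (0.83), PSMB9 (0.90) and NLRC5 (0.82), and PSMB10 is pale or blue against most members.

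The knockout and parental tables were scaled separately, so their levels are set side by side without a test. In COR-L311, HLA-B had 419 FPKM in sgNeg cells and 123 in the parental line, and B2M 1063 and 356. In NCI-H1048, HLA-B had 601 FPKM in sgNeg cells and 252 in the parental line. The 22 members had a median log2 difference, sgNeg over parental, of -0.19 in NCI-H526, 0.09 in NCI-H211, 0.55 in COR-L311 and 0.44 in NCI-H1048, where that of all genes was 0.02 to 0.10. Infection, medium, culture and table differ together in this pair and cannot be told apart.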

How the data were processed

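The authors deposited FPKM values: 1 table for each of 4 knockout lines, with 1 sgNeg column and 1 sgPOU2F3 column that combines 2 guides, and 1 table of 14 parental lines. The labels call the parental values RPKM and the table's name FPKM. TopHat2, Cufflinks, Cuffdiff and hg19 are named in the submitters' processing notes; versions, roles, annotation and scaling are not given in the sources used here.

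Values were taken as log2(FPKM + 1). limma 3.58.1 in R 4.3.3 was fitted with a variance trend over all genes. The knockout fit had line as block and arm as terms over 8 columns, which pairs the arms of a line by design and leaves 3 residual degrees of freedom. The parental fit set 4 lines against 10. A gene was tested where 4 or more columns had an FPKM of 1 or above. P-values were adjusted by Benjamini-Hochberg over all genes tested, with a threshold of 0.05. The replicates are lines, not repeated cultures, so p-values measure the spread between lines.

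Depth was estimated from the steps of FPKM in single-transcript genes; counts were not used here. Other pseudocounts, filters, scalings, no trend, no line block and each line left out were tried. On simulated data with 50 genes changed at each log2 size, the knockout fit recovered 88% of those changed by 1 and 98% of those changed by 2, and the parental fit recovered 14% of those changed by 1, 60% by 2 and 82% by 3. The false calls, counted only among the genes left unchanged, numbered 16 in the fit of 12387 genes and 4 in the fit of 13226. In the real data the knockout fit called 2 of 12387 genes higher and 0 lower, far fewer than the 50 genes changed at each size above. Recovery with so few genes changed was not tested. The changed genes were drawn only from genes with a mean log2(FPKM + 1) above 2, so recovery for genes at lower levels was not tested. The percentages above therefore do not carry over to the 22 members tested. POU2F3, whose ratio varied widely between lines, was not called in the real data.

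The members and lists were chosen with earlier results of these data known. Every member is accounted for; values per line are given for members at a log2 ratio of at least 1 in a line, for NLRC5, CIITA, B2M and the class I heavy chains, and of each pathway list for at most 2 genes with the smallest p. Values per line of TAP1, TAP2, TAPBPL, PSMB8 and MICB, and the promoters shown, were added after their values were seen.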

Additional observations from a re-analysis of the deposited data

Results flagged for a closer look

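By Dixon's test at 95%, 6 values stood apart from the rest of their group, among 60 groups tested, where chance gives about 1 in 20. After knockout, HLA-C in NCI-H211 had a log2 ratio of 0.85, TAPBPL in NCI-H211 one of 0.79, and HLA-F in NCI-H526 one of 0.43, each above the other 3 lines. In the parental table PSMB8 in NCI-H211, at 5.04 FPKM, was far below the other 3 lines used for knockout. Among the 10 other lines HLA-E in DMS114, at 44.2 FPKM, and NLRC5 in NCI-H524, at 7.70 FPKM, were far above the rest.

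The PSMB9 log2 ratio was positive in both lines harvested on day 4 and negative in both harvested on day 5, with a difference of 0.45 (limma adjusted p = 0.826 for the interaction, n = 2 lines each). Such opposite signs occurred in 12.6% of 12387 genes. The interaction was called for 0 of those genes at an adjusted p under 0.05, and 682 had an unadjusted p under 0.05. Day and line cannot be told apart.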

How the results depend on the processing

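In the knockout, 0 members were called under each setting tried, which included no line block and each line left out. The median log2 ratio of members, -0.003, ran from -0.12 without NCI-H211 to 0.04 without NCI-H526. With a pseudocount of 0.1, 4 members (HLA-B, HLA-E, ERAP1 and ERAP2) were at least 2-fold higher in NCI-H211, where 7.02% of all genes tested were, and 1 (HLA-DPA1) was at least 2-fold lower in NCI-H1048, where 1.44% were. With a pseudocount of 1 these were 2 and 0. Over the leave-one-out fits, 9 mean log2 ratios changed sign in 1 fit each: HLA-B ran from -0.19 to 0.34, HLA-C from -0.13 to 0.22, HLA-E from -0.032 to 0.79, TAPBP from -0.0095 to 0.40, ERAP1 from -0.083 to 0.49, PSMB8 from -0.088 to 0.0073, PSMB10 from -0.17 to 0.21, PSME1 from -0.057 to 0.18 and PSME2 from -0.18 to 0.026. The positive means of HLA-B and HLA-C thus rest on NCI-H211. Over all genes, 0 to 2 were called in the knockout under these settings, and 12 to 37 were called higher in the 4 parental lines.

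Between parental lines, 1 member, HLA-DPA1, was called with no filter, and 0 under each other setting. The median difference of members, 0.70, was 1.28 with a pseudocount of 0.1 and 0.45 with no filter, and ran from 0.25 without NCI-H1048 to 1.16 without COR-L311. With a pseudocount of 0.1, HLA-F turned to -0.083 and PSMB10 to 0.019, while NLRC5 was 3.38, PSMB9 4.02, TAP1 4.48, TAP2 3.62, PSMB8 3.91 and HLA-E 2.80, with limma adjusted p of 0.280 or more. With 1 line left out, the log2 difference ran from -0.44 to 0.43 for HLA-F, -0.30 to 0.43 for TAPBP, -0.58 to 0.16 for ERAP1, -0.42 to 0.24 for PSMB10, -0.066 to 0.32 for PSME1, -0.46 to 0.14 for PSME2 and -0.59 to 0.28 for MICB. The limma adjusted p came nearest the threshold for TAP1, 0.056 without DMS114 and up to 0.533 elsewhere. It ran from 0.069, without NCI-H524, to 0.690 for NLRC5, and from 0.074, without NCI-H211, to 0.763 for HLA-B. The cause of these shifts was not tested.

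Combined guides, 1 library per line, lower depth of the sgNeg columns, which hold 1 library each, and low levels of most class II genes limit what these data can show.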
